A study of Mus musculus with 10 samples.

Results

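The 39 genes described here were chosen by name as a set of histone deacetylases (HDACs), histone demethylases, writers and readers of the H3K9 and H3K27 methyl marks, Trim28 and Dnmt3a. All 39 had a row among the 14626 named genes of the deposited table, and all 39 passed the minimum mean signal of 1 that left 12855 genes for testing. RNA was sequenced from hearts of 5 Lmna knockout mice (KO) and 5 wild-type mice (WT), all on a C57BL/6 background and taken at postnatal day 14. The labels name no promoter, Cre or treatment for either group and do not say how the animals were related, so p-values measure the spread between these 10 samples. The samples are bulk tissue, so a shift in the share of a cell type and a change of RNA per cell cannot be told apart. Values are signal units (CPM of the effective library size, comparable between libraries for each gene), and library totals were 15259545 to 22146030 reads.

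Lmna encodes lamins A and C, which line the inner face of the nuclear envelope and hold silent chromatin at the nuclear edge. Silent chromatin is built in steps: deacetylases remove acetyl groups from histones, methyltransferases of the SUV39H, SETDB and EHMT types methylate H3K9, and HP1 proteins bind that mark. Polycomb repressive complex 2 (PRC2) methylates H3K27, which is read by CBX proteins of the Polycomb group. Demethylases remove methyl groups from histones, and those of the set act on H3K4, H3K9, H3K27 or H3K36. In heart muscle, class IIa HDACs are known for holding back MEF2-driven growth genes, and EZH1 and EZH2 are the alternative catalytic subunits of PRC2.

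Lmna itself was lower in every KO library. Its signal was 33.7 ± 10.3 in KO and 106 ± 2.95 in WT (SD, n = 5 each), and the KO libraries, at 22.1 to 48.9, lay below the WT libraries, at 102.3 to 110.1 (two-sided exact permutation p = 0.00794, the smallest that 5 against 5 values allow). The 5th KO library stood apart, with a mean correlation with the WT libraries of 0.9055, against 0.962 to 0.985 for KO libraries 1 to 4 and 0.989 to 0.991 among WT libraries. Changes of the 39 genes are given with and without it. Cardiomyocyte markers, 8 genes summed, were at 43733 to 78256 in KO and 80557 to 87491 in WT, lowest in the 5th and 2nd KO libraries, with 0 of the 8 called with all libraries and 1, Ryr2, called lower without the 5th KO library. Dividing-cell markers, 12 genes summed, were at 10.6 to 59.8 in KO and 55.6 to 109.9 in WT. Of these, 10 were tested, and all 10 had negative log2 changes, with a median of -1.04. With all libraries 0 of the 10 were called, and 3 (Mki67, Top2a and Ccnb2) were called lower without the 5th KO library. In that fit 348 of 12855 genes were called lower. Mki67 was at 21.3, 13.4, 16.5, 13.02 and 2.44 in KO hearts 1 to 5 and 26, 20.5, 36.9, 28.8 and 39.9 in WT hearts 1 to 5. The sums were 1945 to 5997 in KO and 4636 to 5854 in WT for 7 fibroblast markers. For 7 endothelial markers they were 978 to 1257 in KO and 1298 to 1417 in WT, and for 6 macrophage markers 133 to 269 in KO and 199.6 to 226 in WT. Of the 7 endothelial markers, 2 had positive and 5 negative log2 changes, and 0 were called with all libraries. Without the 5th KO library 1 of them, Kdr, was called lower. The endothelial gene Pecam1 overlapped between the genotypes, at 207.6 to 298.9 in KO and 272.4 to 291.3 in WT. Its highest value was in the 5th KO library (log2 change -0.12, limma adjusted p = 0.515). The 6 lymphocyte and 3 adipocyte markers with a row summed to at most 8.58 and 6.85 in any library. The part of these cell markers in the results below was not tested.

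The 4 members whose KO and WT values did not overlap were Hdac6, Kdm3a, Kdm1a and Hdac2. They were 10.3% of the 39 members, and the share over all genes tested was also 10.3%. Their promoter sequences are shown because they met this rule, which does not set the members apart from other genes. The RefSeq table of promoters (build GRCm38.p6) matched 30 of the 39 members. The 250 bases before each start are given 5′ to 3′ on the gene's strand, with capitals for the CCAAT box in either orientation (CCAAT, or ATTGG on the given strand) and for a MEF2-type motif, which is CTA and TAG with any 4 bases between them.
Hdac6, chrX:7947890-7948139, minus strand: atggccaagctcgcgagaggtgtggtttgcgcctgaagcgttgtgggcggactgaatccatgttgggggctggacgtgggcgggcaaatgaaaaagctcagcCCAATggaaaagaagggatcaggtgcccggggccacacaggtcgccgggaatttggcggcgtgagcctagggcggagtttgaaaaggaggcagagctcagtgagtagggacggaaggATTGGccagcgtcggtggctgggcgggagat
Kdm3a, chr6:71632918-71633167, minus strand: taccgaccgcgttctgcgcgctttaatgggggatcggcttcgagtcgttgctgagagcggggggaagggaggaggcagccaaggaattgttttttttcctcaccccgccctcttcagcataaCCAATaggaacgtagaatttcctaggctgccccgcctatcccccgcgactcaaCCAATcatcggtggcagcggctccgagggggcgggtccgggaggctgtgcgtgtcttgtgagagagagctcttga
Kdm1a, chr4:136602724-136602973, minus strand: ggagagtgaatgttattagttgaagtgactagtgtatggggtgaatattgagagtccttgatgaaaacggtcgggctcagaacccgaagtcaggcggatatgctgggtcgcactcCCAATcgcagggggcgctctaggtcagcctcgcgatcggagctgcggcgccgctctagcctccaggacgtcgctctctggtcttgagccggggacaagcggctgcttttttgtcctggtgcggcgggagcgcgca
Hdac2, chr10:36974294-36974543, plus strand: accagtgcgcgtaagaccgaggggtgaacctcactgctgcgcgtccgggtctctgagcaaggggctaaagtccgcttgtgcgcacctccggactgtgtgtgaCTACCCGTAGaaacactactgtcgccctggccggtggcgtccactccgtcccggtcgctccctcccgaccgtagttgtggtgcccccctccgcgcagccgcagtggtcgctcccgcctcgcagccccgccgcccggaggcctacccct
Kdm3a has 3 promoter windows, of which 1 is shown. The Hdac6 and Kdm3a windows shown each held 2 CCAAT boxes and the Kdm1a window held 1. The Hdac2 window held 1 MEF2-type motif and 0 CCAAT boxes. In that motif the 4 bases between CTA and TAG are C and G only. The search set no rule for these 4 bases, so no match to it is read as a MEF2 binding site. Binding of MEF2 was not tested. Searched on both strands and over all windows of a gene, CCAAT was present in 15 of the 30 matched members (50%), against 40.4% of 9608 tested genes and 33.8% of 32851 single windows. The MEF2-type motif was in 3 of 30 members (10%), against 3.45% of tested genes and 3.20% of windows. The E2F-type motif TTTNNCGC was in 3 of 30 members (10%), against 8.24% of tested genes and 4.28% of windows. The motifs do not overlap one another in the windows shown. None of the 4 windows shown held TTTNNCGC.

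Per length of exon, the 39 genes spanned a wide range of levels. Cbx3, which encodes the HP1 protein gamma, was the highest with a mean of 49.7 signal units per kb in KO and 46.5 in WT. Hdac3, the catalytic subunit of the NCoR complex, followed with 32.01 in KO and 29.9 in WT, then Trim28, the scaffold that brings SETDB1 to target sites, with 29.0 in KO and 25.1 in WT. Suv39h2, an H3K9 methyltransferase, was the lowest with 0.28 in KO and 0.422 in WT. Low levels per kb were also found for the Polycomb readers Cbx8 (1.19 in KO and 1.48 in WT), Cbx7 (4.04 in KO and 2.16 in WT) and Cbx2 (2.39 in KO and 2.17 in WT). The Polycomb reader Cbx6 was higher, at 7.78 in KO and 7.69 in WT. Genes of other roles were also low, among them Setdb2 (2.32 in KO and 2.83 in WT) and Kdm6b (2.65 in KO and 2.92 in WT). The genes of the HDAC family ran from 3.93 per kb (Hdac4) to 32.01 (Hdac3) in KO and from 3.89 to 29.9 in WT, with the same genes at both ends.

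**Figure D1:**
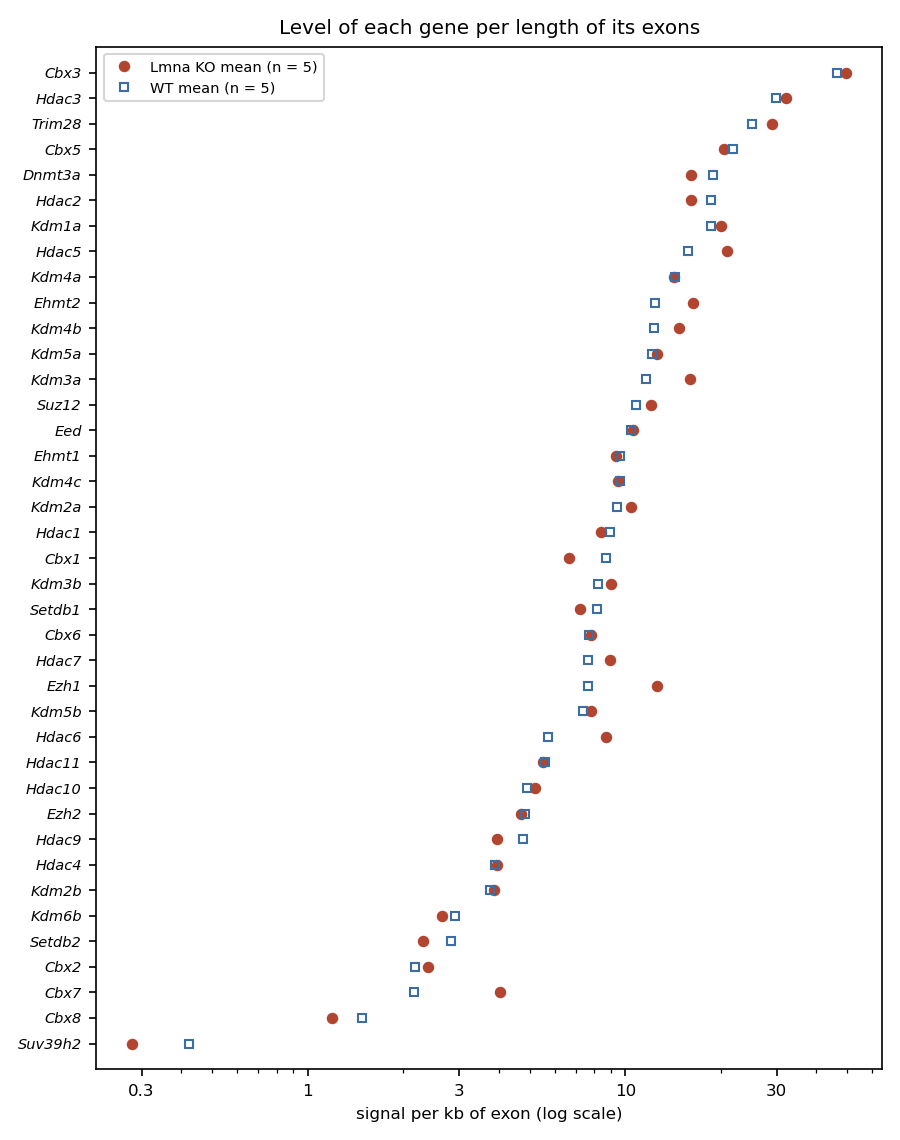
Mean signal per kb of exon (log axis) of the 39 genes in Lmna KO (filled circles, n = 5) and WT hearts (open squares, n = 5), ordered by the WT level. Cbx3 is at the top, at 49.7 in KO and 46.5 in WT, and Suv39h2 at the bottom, at 0.28 in KO and 0.422 in WT.

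As a set, the 39 genes differed between the genotypes mostly by small amounts, and none passed the test with all libraries. By group means 4 members, Hdac6, Ezh1, Cbx7 and Suv39h2, changed 1.5-fold or more. The count was 0 of 39 members for the test across all genes (limma, Benjamini-Hochberg adjusted p under 0.05), where 26 of 12855 genes, or 0.202%, were called. The smallest adjusted p among members was 0.102 for Hdac6. An unadjusted p under 0.05 was found for 7 of 39 members (17.9%), 4 of them higher and 3 lower in KO, against 20.8% of all genes tested. The median log2 change of the members was 0.03, with 22 positive and 17 negative values between -0.50 and 0.73, and that of all genes was -0.01. The median absolute log2 change was 0.14 for members and 0.19 for all genes. The 95% interval of the change lay within 1.5-fold in either direction for 28 of 39 members and within 2-fold for 37, and Ezh1 and Cbx7 were the 2 members whose interval reached past 2-fold upward. Among all genes these intervals lay within 1.5-fold for 57.0% and within 2-fold for 86.5%. A mean signal of at least 5 was reached by 37 of 39 members and by 10470 of 12855 genes. Members and all genes were thus not matched for signal in these comparisons.

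Without the 5th KO library 1 of 39 members passed, Hdac6, which rose, where 640 of 12855 genes, or 4.98%, were called and 292, or 2.27%, were called higher. The median log2 change of the members was then 0.0035, and their median absolute change was 0.10, against 0.14 for all genes. With all libraries, KO and WT values did not overlap for 4 of 39 members, or 10.3%, and the share among all genes tested was also 10.3%. Of the 4, 3 were higher and 1 was lower in KO, where the shares over all genes were 4.07% and 6.18%. Over KO libraries 1 to 4 the count was again 4 of 39, against 11.9% of all genes. Hdac6 was also the 1 member called by DESeq2 on the recovered counts, where 6.11% of genes were called, and the 1 called by edgeR without the 5th KO library, where 4.85% were. The authors' deposited table gave Hdac6 an FDR of 0.0218, the only one under 0.05 among the members, where 5.52% of its rows were under 0.05. Changes in the authors' deposited table and in limma had the same sign for 38 of 39 members.

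**Figure D2:**
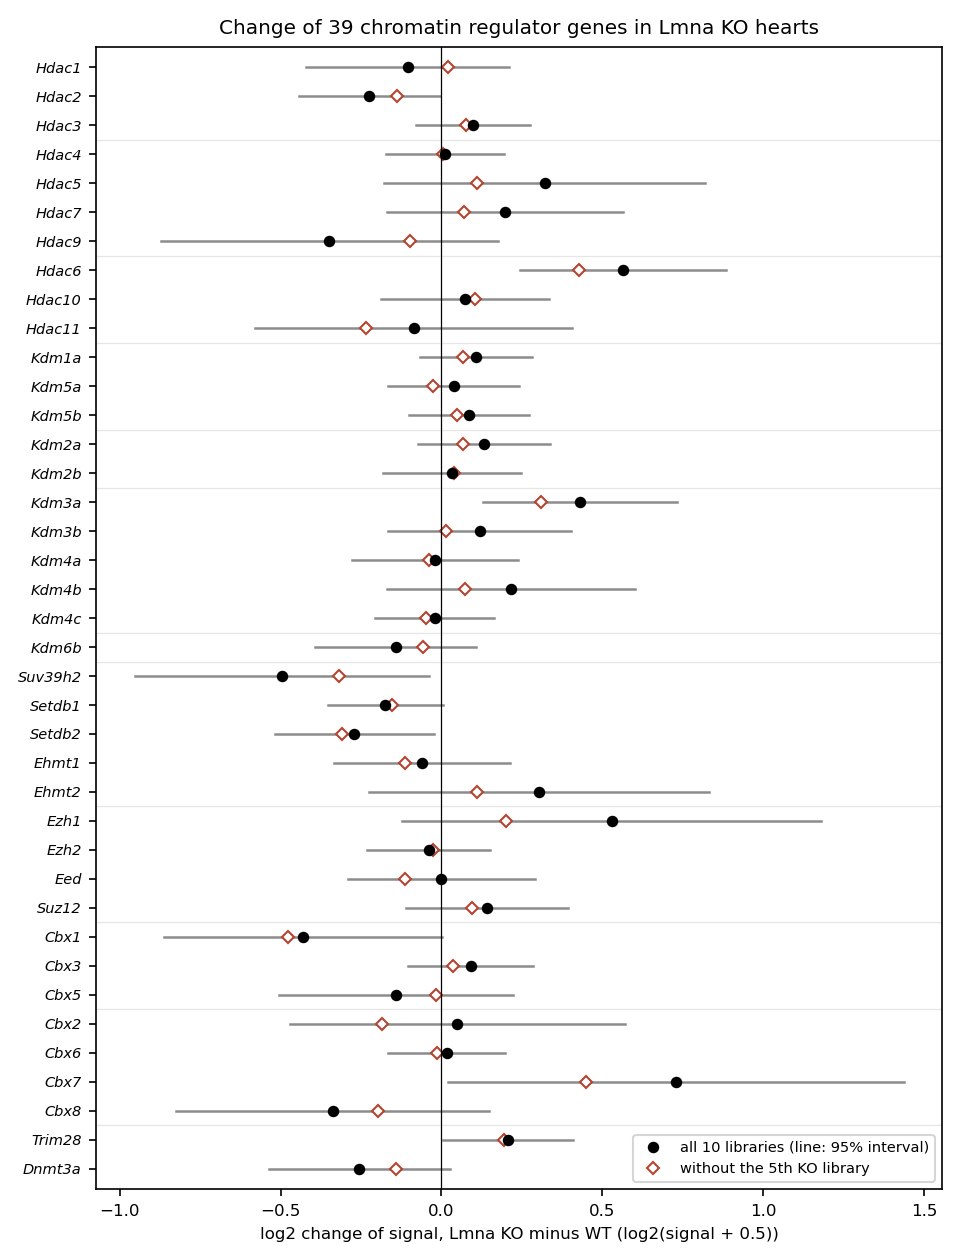
Log2 change of signal, Lmna KO minus WT, for each of the 39 genes, grouped by role from HDACs at the top to Trim28 and Dnmt3a at the bottom. Black circles with 95% intervals are the fit of all 10 libraries and open diamonds the fit without the 5th KO library, in which Hdac6 alone passed the test (log2 change 0.43).

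Hdac6 is a class IIb deacetylase that acts mainly in the cytoplasm, on tubulin among other proteins. The gene (chromosome X, 7930122 to 7947889, mm10) is X-linked. Its signal was 36.5, 29.6, 29.4, 32.9 and 51.96 in KO hearts 1 to 5, against 22.4, 22.7, 25.1, 24.3 and 23.9 in WT hearts 1 to 5. Every KO library lay above every WT library, and the WT values were close together while the 5th KO library was the highest of all. The means were 36.1 ± 9.35 in KO and 23.7 ± 1.15 in WT (SD, n = 5 each), a ratio of 1.52 (log2 change 0.56, SE 0.15, limma adjusted p = 0.102). Without the 5th KO library the KO mean was 32.1 ± 3.35 (SD, n = 4), and Hdac6 rose on the log2 scale by 0.43 (limma adjusted p = 0.0211). The other class IIb gene, Hdac10, and the class IV gene Hdac11 had values that overlapped between the genotypes, with Hdac10 at 11.1 to 15.6 in KO and 10.4 to 13.5 in WT and Hdac11 at 7.77 to 21.1 in KO and 13.1 to 18.6 in WT. Their log2 changes were 0.07 (Hdac10) and -0.09 (Hdac11), and 0.10 and -0.24 without the 5th KO library.

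Class I deacetylases are nuclear enzymes of corepressor complexes. Hdac2, which works in pairs with Hdac1 (chromosome 10, 36974544 to 37001888), was at 73.1, 72.6, 72.2, 69.4 and 53.2 in KO hearts 1 to 5 and at 80.6, 80.1, 79.7, 77.9 and 77.1 in WT hearts 1 to 5. All KO values lay below all WT values, with KO libraries 1 to 4 close together and the 5th well below them. The means were 68.1 ± 8.46 in KO and 79.1 ± 1.5 in WT (SD, n = 5 each), and the change did not pass with all libraries (log2 change -0.22, SE 0.10, limma adjusted p = 0.232) or without the 5th KO library, where it was -0.14 (limma adjusted p = 0.191). Hdac1 was at 11.7 to 19.4 in KO and 15.1 to 20.2 in WT, with its lowest value in the 5th KO library (log2 change -0.10, and 0.02 without that library), and the ratio of Hdac2 to Hdac1 was 3.74 to 4.55 in KO and 3.86 to 5.35 in WT. Hdac3 was at 59.8 to 69.3 in KO and 56.7 to 66.5 in WT (log2 change 0.10, and 0.08 without the 5th KO library). Neither Hdac1 nor Hdac3 separated the genotypes.

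Class IIa deacetylases bind MEF2 factors and leave the nucleus when phosphorylated by calcium-dependent and related kinases. Hdac4 had nearly the same level in both genotypes, at 33.8, 27.5, 31.8, 33.6 and 32.6 in KO hearts 1 to 5 and 31.4, 31.3, 31.7, 31.2 and 31.9 in WT hearts 1 to 5 (log2 change 0.01, 95% interval -0.17 to 0.20). Hdac5 was at 91.96, 68.7, 106, 124 and 198 in KO hearts 1 to 5 and 85.3, 89.2, 91.8, 101 and 76.2 in WT hearts 1 to 5. The 5th KO library was far above the others and the 2nd KO library below every WT library, so the groups overlapped (log2 change 0.32, SE 0.23, limma adjusted p = 0.42). Hdac7, best known from blood vessel endothelium, was at 40.5, 30.8, 44.6, 44.03 and 61.9 in KO hearts 1 to 5 and 38.1, 38.1, 38.3, 45.1 and 30.3 in WT hearts 1 to 5. The 5th KO library was again the highest, and the other 4 KO values lay within the WT range. Hdac9 was at 43.8, 45.96, 41.03, 60.1 and 19.6 in KO hearts 1 to 5 and 54.96, 51.8, 44.8, 56.2 and 46.1 in WT hearts 1 to 5. Here the 5th KO library was the lowest and the 4th the highest of all 10 (log2 change -0.35, SE 0.24, limma adjusted p = 0.404). The ratio of Hdac5 to Hdac9 within a library was 10.1 in the 5th KO library, 1.49 to 2.59 in KO libraries 1 to 4 and 1.55 to 2.05 in WT. Without the 5th KO library the changes of these 4 genes were 0.0035, 0.11, 0.07 and -0.10 on the log2 scale, in the order Hdac4, Hdac5, Hdac7 and Hdac9, with limma adjusted p-values between 0.662 and 0.986. Among 10 tested MEF2 factors and class IIa kinases 0 passed in either direction, with a median log2 change of -0.14.

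**Figure D3:**
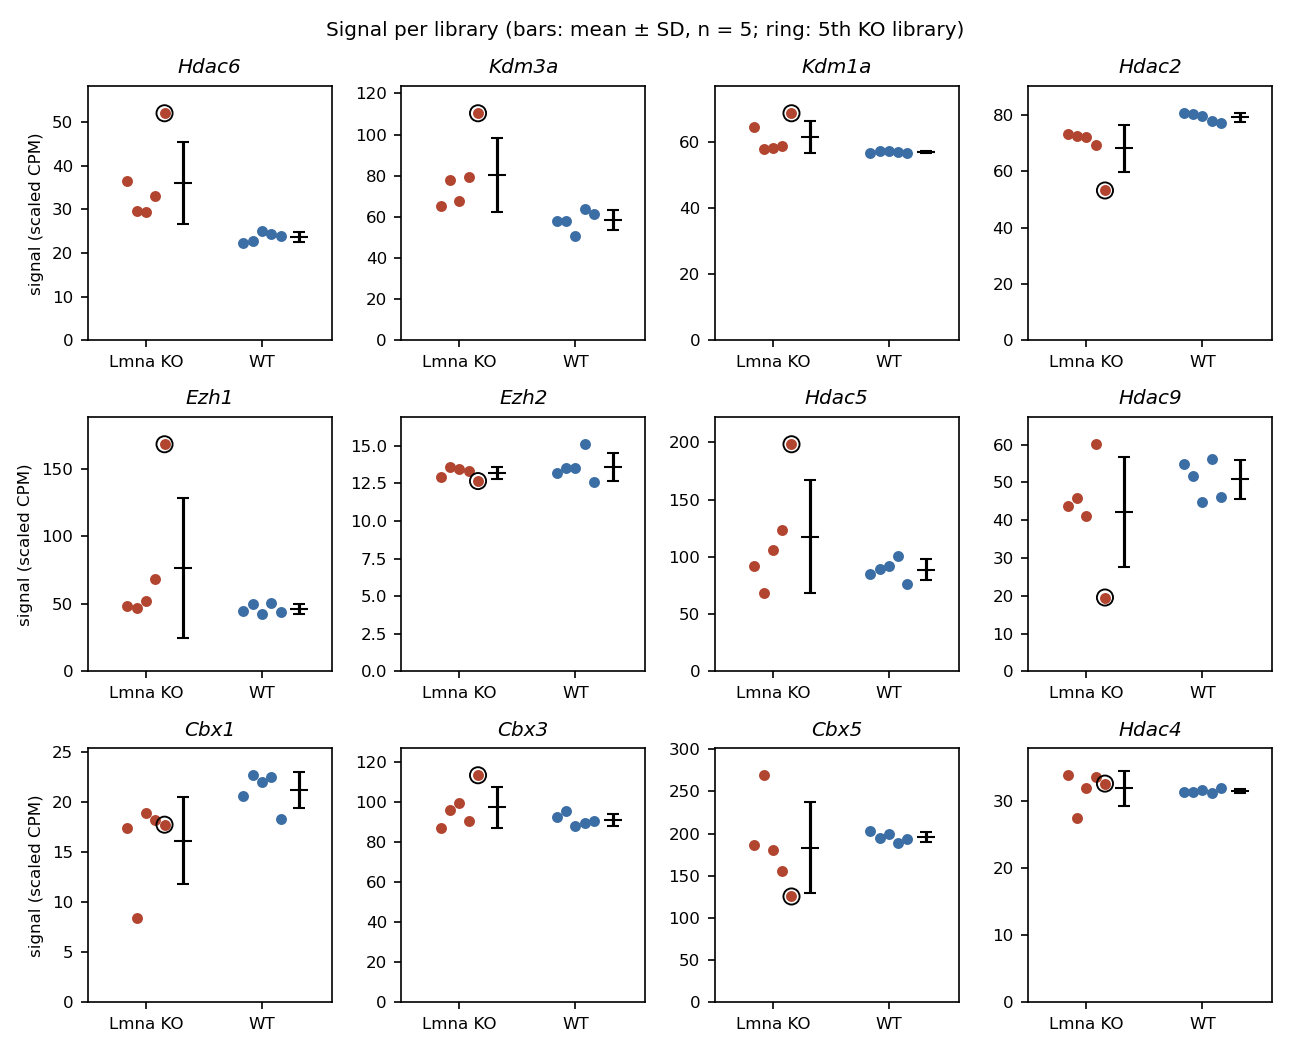
Signal per library of 12 of the genes in Lmna KO (left in each panel) and WT hearts (right), with mean ± SD (n = 5) beside the points and a ring around the 5th KO library. Hdac6, Kdm3a and Kdm1a lie above and Hdac2 below all WT values in 5 of 5 KO libraries, while in Ezh1, Hdac5 and Hdac9 the ringed library lies far from the others.

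Among the 11 demethylases, 8 had positive and 3 negative log2 changes, with a median of 0.09 and 0 called. Kdm3a, which removes mono- and dimethyl groups from H3K9 and is known as a hypoxia-induced gene, had the largest difference of the group (chromosome 6, 71588970 to 71632917). Its signal was 65.4, 77.8, 67.8, 79.3 and 110.3 in KO hearts 1 to 5, against 58.1, 57.8, 50.8, 63.9 and 61.3 in WT hearts 1 to 5. All KO values lay above all WT values, although the lowest KO and the highest WT value were close to each other. The means were 80.1 ± 17.9 in KO and 58.4 ± 4.95 in WT (SD, n = 5 each), a ratio of 1.37 (log2 change 0.43, SE 0.14, limma adjusted p = 0.136), and without the 5th KO library the log2 change was 0.31 (limma adjusted p = 0.0702). Neither fit called Kdm3a.

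Kdm1a, the amine oxidase LSD1 that demethylates H3K4 within the CoREST complex (chromosome 4, 136550533 to 136602723), also had no overlap between the genotypes. The lowest KO value, 57.8, and the highest WT value, 57.4, were nearly equal. This gap is below the counting error of a gene with as few as 844 reads in a library, and neither fit called Kdm1a. It was at 64.4, 57.8, 58.1, 58.9 and 68.7 in KO hearts 1 to 5 and at 56.7, 57.4, 57.2, 56.9 and 56.7 in WT hearts 1 to 5. The WT values were almost identical, KO libraries 2 to 4 lay just above them and KO libraries 1 and 5 farther above (log2 change 0.11, SE 0.08, limma adjusted p = 0.435, with a log2 change of 0.07 without the 5th KO library). The other H3K4 demethylases of the set, Kdm5a and Kdm5b, had log2 changes of 0.04 and 0.09, and of -0.03 and 0.05 without the 5th KO library. Kdm5a was at 121 to 163 in KO and 128 to 137 in WT, and Kdm5b was at 66.7 to 79.9 in KO and 62.4 to 74.1 in WT. The H3K36 demethylases Kdm2a and Kdm2b had log2 changes of 0.13 and 0.03, or 0.07 and 0.04 without the 5th KO library, with Kdm2a at 90.6 to 120.0 in KO and 86.4 to 98.1 in WT and Kdm2b at 19.6 to 24.9 in KO and 19.5 to 23.9 in WT. Both groups overlapped in each of these 4 genes.

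Of the remaining enzymes that act on H3K9, Kdm3b was at 50.97 to 82.9 in KO and 51.1 to 60.3 in WT (log2 change 0.12, and 0.01 without the 5th KO library). Kdm4a, Kdm4b and Kdm4c, which act on trimethylated H3K9 and H3K36, had log2 changes of -0.02, 0.22 and -0.02, and of -0.04, 0.07 and -0.05 without the 5th KO library. Kdm4a was at 52.7 to 81.4 in KO and 68.3 to 77.3 in WT, and Kdm4c was at 38.3 to 44.3 in KO and 38.2 to 44.95 in WT. Kdm4b, with the largest difference of these, was at 42.6 to 96.96 in KO and 53.1 to 57.99 in WT. Kdm6b, which removes methyl groups from H3K27, was at 13.7 to 20.3 in KO and 18.4 to 21.8 in WT (log2 change -0.14, and -0.06 without the 5th KO library). In all these genes the genotypes overlapped.

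Of the 5 H3K9 methyltransferase genes, 4 had a negative and 1 a positive log2 change, and 0 of 5 were called. Suv39h2, which places H3K9 trimethylation at pericentric repeats, was at 1.39, 1.73, 0.934, 1.5 and 0.508 in KO hearts 1 to 5 and 1.88, 1.72, 1.67, 1.84 and 2.03 in WT hearts 1 to 5. It rests on few reads, at least 10 per library, and the 2nd KO library lay within the WT range (log2 change -0.50, SE 0.21, limma adjusted p = 0.212, with a log2 change of -0.32 without the 5th KO library). Setdb1, the methyltransferase partner of TRIM28, was at 37.1, 33.3, 31.1, 35.03 and 31.6 in KO hearts 1 to 5 and 38.8, 38.5, 36, 37.6 and 39.02 in WT hearts 1 to 5. Only the 1st KO library reached into the WT range, in a gene with little spread (log2 change -0.17, SE 0.08, limma adjusted p = 0.247, with a log2 change of -0.15 without the 5th KO library). Its relative Setdb2 was at 8.45, 9.79, 8.56, 8.36 and 10.1 in KO hearts 1 to 5 and 10.5, 12.5, 12.3, 9.38 and 10.6 in WT hearts 1 to 5, where the 4th WT library lay among the KO values (log2 change -0.27, SE 0.11, limma adjusted p = 0.208, with a log2 change of -0.31 without the 5th KO library). These 3 genes, Kdm3a, Hdac6 and Ehmt2 were called when libraries were weighted by their fit, a setting that called 17.7% of all genes.

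Ehmt1 and Ehmt2 encode GLP and G9a, which together place most mono- and dimethyl marks on H3K9. Ehmt2 was at 63.6, 33.2, 60.9, 71.7 and 108 in KO hearts 1 to 5 and 50.1, 50.3, 47.9, 59.96 and 47.8 in WT hearts 1 to 5. In KO, 4 of 5 values were above every WT value, and the 2nd KO library was below every WT value (log2 change 0.30, SE 0.24, limma adjusted p = 0.469). The log2 change was 0.11 without the 5th KO library (limma adjusted p = 0.766) and 0.53 without the 2nd (limma adjusted p = 0.116). With both left out, an alternative chosen after the data were seen, Ehmt2 rose on the log2 scale by 0.35 (limma adjusted p = 0.0263), where 10.7% of all genes were called. Ehmt1 was at 39.7 to 63.9 in KO and 54.02 to 61.5 in WT (log2 change -0.06, and -0.11 without the 5th KO library), and its lowest value was likewise in the 2nd KO library.

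PRC2 genes were not called, and Ezh1 and Ezh2 differed from each other in spread. Ezh1 (chromosome 11, 101191115 to 101226450) was at 48.1, 46.9, 52.03, 68.6 and 168 in KO hearts 1 to 5 and 44.4, 49.9, 42.8, 50.8 and 44.2 in WT hearts 1 to 5. The 5th KO library was 3.62 times the WT mean, the 3rd and 4th were above the WT range and the 1st and 2nd within it (log2 change 0.53, SE 0.30, limma adjusted p = 0.317). Without the 5th KO library the change was 0.20 (limma adjusted p = 0.326). Ezh2 (chromosome 6, 47530274 to 47595030), the subunit known from dividing cells, was at 12.9, 13.6, 13.4, 13.3 and 12.6 in KO hearts 1 to 5 and 13.2, 13.5, 13.5, 15.1 and 12.6 in WT hearts 1 to 5. All KO values lay within the WT range, and the 95% interval of the log2 change was -0.23 to 0.15. Within a library the ratio of Ezh1 to Ezh2 signal was 3.72, 3.45, 3.87, 5.16 and 13.3 in KO hearts 1 to 5 and 3.17 to 3.69 in WT hearts. The dividing-cell markers Mki67 and Top2a had log2 changes of -1.38 and -1.48 (limma adjusted p = 0.141 and 0.128) and fell without the 5th KO library (limma adjusted p = 0.0313 and 0.0284), a fit in which Ezh2 had a change of -0.03. Eed and Suz12, the core subunits shared by both forms, had log2 changes of -0.00027 (Eed) and 0.14 (Suz12), and of -0.11 and 0.10 without the 5th KO library. Eed was at 17.97 to 29.7 in KO and 19.8 to 23.8 in WT, and Suz12 was at 44.3 to 64.8 in KO and 43.9 to 49.5 in WT.

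The 3 HP1 genes had 1 positive and 2 negative log2 changes, and 0 of 3 were called. Cbx1, which encodes HP1 beta (chromosome 11, 96789136 to 96808640), was at 17.4, 8.47, 18.9, 18.2 and 17.7 in KO hearts 1 to 5 and 20.6, 22.7, 21.97, 22.4 and 18.2 in WT hearts 1 to 5. The 2nd KO library had less than any other, and 4 of 5 KO values were below the WT range (log2 change -0.43, SE 0.20, limma adjusted p = 0.24, with a log2 change of -0.48 without the 5th KO library). Cbx3 (chromosome 6, 51470616 to 51483704) was at 87.2, 96.2, 99.6, 90.6 and 113 in KO hearts 1 to 5 and 92.3, 95.6, 87.8, 89.4 and 90.3 in WT hearts 1 to 5 (log2 change 0.09, 95% interval -0.10 to 0.28, and a log2 change of 0.03 without the 5th KO library). The annotation names 8 pseudogene copies of Cbx3, so reads of this gene may have been split or gained in counting. Cbx5, which encodes HP1 alpha (chromosome 15, 103191546 to 103239816), was at 186, 269, 180.2, 156 and 125 in KO hearts 1 to 5 and 203, 195, 199.7, 188 and 193 in WT hearts 1 to 5. The WT values were close together, while KO libraries 1, 3, 4 and 5 were below them and the 2nd was above (log2 change -0.14, SE 0.17, limma adjusted p = 0.635, with a log2 change of -0.02 without the 5th KO library).

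Of the Polycomb readers, Cbx7 had the largest log2 change of the whole set. It was at 7.51, 7.83, 10.3, 16.2 and 26.97 in KO hearts 1 to 5 and 5.78, 7.75, 8.08, 10.1 and 5.10 in WT hearts 1 to 5. KO libraries 3, 4 and 5 were above the WT range and libraries 1 and 2 within it (log2 change 0.73, SE 0.32, limma adjusted p = 0.231). Without the 5th KO library the change was 0.45 (limma adjusted p = 0.291). Cbx2 was at 6.39 to 16.7 in KO and 6.30 to 9.61 in WT, Cbx6 at 41.9 to 49.1 in KO and 42.4 to 49.7 in WT and Cbx8 at 2.59 to 5.72 in KO and 4.0 to 6.04 in WT, and their log2 changes were 0.05, 0.02 and -0.34. They were -0.19, -0.01 and -0.20 without the 5th KO library, so that Cbx2 and Cbx6 changed sign. The highest Cbx2 value, 16.7, and the lowest Cbx8 value, 2.59, were both in the 5th KO library.

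Trim28 was at 106, 87.2, 87.5, 93.2 and 97.2 in KO hearts 1 to 5 and 75.4, 78.7, 90.02, 88.2 and 75.2 in WT hearts 1 to 5. The groups overlapped in a narrow band (log2 change 0.21, SE 0.09, limma adjusted p = 0.234), and the change hardly moved without the 5th KO library, at 0.20 (limma adjusted p = 0.213). Dnmt3a, a de novo DNA methyltransferase, was at 185, 144, 175, 179 and 115 in KO hearts 1 to 5 and 187, 181, 189, 189 and 193 in WT hearts 1 to 5. The 1st KO library lay within the narrow WT range and the other 4 below it, with the 5th lowest (log2 change -0.25, SE 0.13, limma adjusted p = 0.276, with a log2 change of -0.14 without the 5th KO library).

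**Figure D4:**
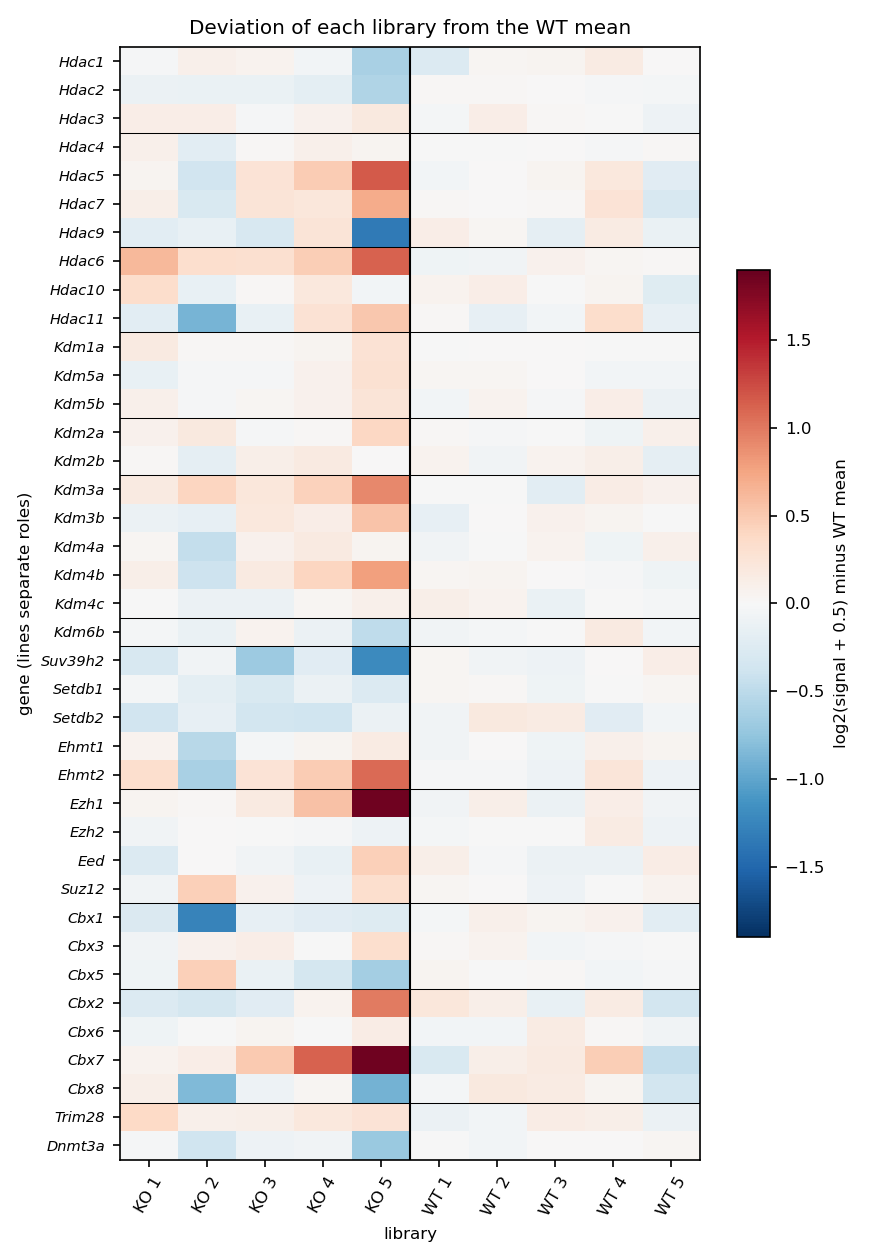
Deviation of each library from the WT mean, in log2(signal + 0.5), for the 39 genes (rows, lines separate roles) in KO libraries 1 to 5 (left) and WT libraries 1 to 5 (right). The strongest colours are in the 5th KO library, where Ezh1, Cbx7, Hdac5 and Hdac6 are high and Hdac9 and Suv39h2 low, and in the 2nd, where Cbx1 is low.

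The spread within the KO group exceeded that within WT. The median coefficient of variation of the 39 genes was 17.0% in KO, 10.4% in KO libraries 1 to 4 and 6.93% in WT, against 22.4%, 15.7% and 8.53% for all genes tested. In 27 of 39 members the 5th library was the KO library farthest from the WT mean. The same count was not made over all genes, so it is not read as a trait of these members. Counted library by library, 19, 21, 19, 25 and 32 of the 39 members lay outside the range of the 5 WT values in KO libraries 1 to 5, or 48.7%, 53.8%, 48.7%, 64.1% and 82.1%. The shares among all genes tested were 49.1%, 72.8%, 50.7%, 56.6% and 82.8%. In the 5th library 22 members were above and 10 below the WT range, and its median deviation from the WT mean was 0.19 for members and -0.02 for all genes. In the 2nd library 7 were above and 14 below, with a median of -0.12 for members and -0.02 for all genes. The split by direction was not counted over all genes, so it is not read as a trait of these members. Other chromatin lists, described below, were also high in the 5th KO library. Acetyltransferases summed to 1042 there (610 to 657 in WT) and corepressor subunits to 2162 (1659 to 1694 in WT). Other demethylases were within the WT range, at 675 (581 to 690), and MEF2 factors and class IIa kinases below it, at 824 (1026 to 1034).

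**Figure D5:**
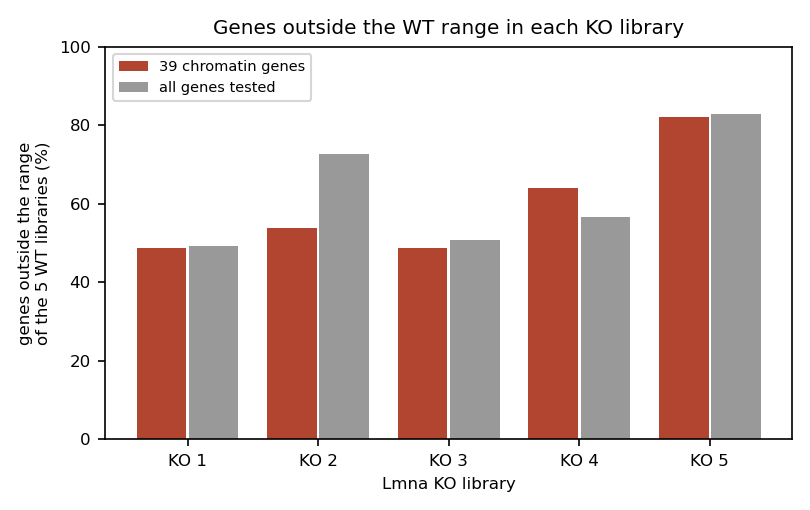
Percent of genes outside the range of the 5 WT libraries in each Lmna KO library, for the 39 chromatin genes (left bars) and all 12855 genes tested (right bars). The bars run from 48.7% to 82.1% for the 39 genes and from 49.1% to 82.8% for all genes.

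In 12 further lists 155 genes were tested. These were chromatin genes, sirtuins including the mitochondrial Sirt3, Sirt4 and Sirt5, and 10 MEF2 factors and class IIa kinases. With all libraries 0 of the 155 were called higher and 0 lower. An unadjusted limma p under 0.05 was found for 28, against 20.8% of all genes. Without the 5th KO library 0 were called higher and 1 lower, where 4.98% of all genes were called. With all libraries, edgeR's quasi-likelihood test called 20 of all genes and 0 of the 39 members. KO and WT values did not overlap in 17 of 155 (10.97%), against 10.3% of all genes, with 9 higher and 8 lower in KO. Median log2 changes were 0.04 for 25 corepressor subunits, -0.05 for 7 sirtuins, 0.15 for 10 acetyltransferases, 0.09 for 22 genes of methylation at H3K4, H3K36 and H3K79 and -0.02 for 11 other demethylases. They were 0.07 for 16 other genes of the H3K9, H4K20 and HP1 pathways, 0.16 for 16 subunits of Polycomb repressive complex 1, 0.11 for 8 accessory subunits of PRC2 and of H2A deubiquitination, 0.05 for 12 DNA methylation genes, 0.20 for 9 lamina tethers and 0.04 for 9 histone variants.

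The gene called lower without the 5th KO library was Mina, a JmjC-domain dioxygenase. It was at 15.96, 11.7, 14.5, 13.8 and 7.97 in KO hearts 1 to 5 and 19.96, 19.8, 21.6, 18.97 and 18.2 in WT hearts 1 to 5, and all KO values were below all WT values (log2 change -0.64, SE 0.16, limma adjusted p = 0.0985). Its log2 change was -0.49 (limma adjusted p = 0.0224) without the 5th KO library. Atrx, a chromatin remodeller that works with DAXX at heterochromatin, was at 257, 254, 297, 273 and 255 in KO hearts 1 to 5 and 340.5, 344, 316, 304 and 343 in WT hearts 1 to 5, again without overlap (log2 change -0.30, SE 0.09, limma adjusted p = 0.119). The mitochondrial sirtuins Sirt3, Sirt4 and Sirt5 lay below all WT values, with Sirt3 at 12.6 to 33.9 in KO and 35.8 to 40.2 in WT, Sirt4 at 4.93 to 7.29 in KO and 7.73 to 9.08 in WT and Sirt5 at 19.05 to 33.9 in KO and 34.3 to 35.9 in WT. The nuclear sirtuin gene Sirt1 lay above all WT values, at 33.7 to 79.9 in KO and 29.2 to 32.3 in WT, and 0 of the 7 sirtuins were called. Also above all WT values in 5 of 5 KO libraries were Sap130, a Sin3 complex subunit (log2 change 0.34, SE 0.10, limma adjusted p = 0.123), the acetyltransferase gene Kat7 (log2 change 0.30, SE 0.12, limma adjusted p = 0.195) and Asxl1, a partner of the H2A deubiquitinase BAP1 (log2 change 0.40, SE 0.13, limma adjusted p = 0.147). The remaining genes without overlap were Men1, Phf8, Prdm2, Rybp and Lemd3, which were higher in KO, and Rbbp5, Jarid2 and Mef2c, which were lower. Uhrf1, which brings DNMT1 to replicating DNA, was at 2.59, 2.25, 2.65, 2.62 and 2.34 in KO hearts 1 to 5 and 3.96, 2.51, 4.87, 4.38 and 5.15 in WT hearts 1 to 5, overlapping only through the 2nd WT library (log2 change -0.61, SE 0.17, limma adjusted p = 0.114).

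Of the rest, the genes with the lowest unadjusted p in their lists overlapped between the genotypes and did not pass. The log2 changes were 0.29 for Kmt2e, 0.63 for the Polycomb gene Pcgf2, -0.37 for the kinase gene Prkd1, 0.37 for Emd, which encodes the inner nuclear membrane protein emerin, and 0.25 for the histone gene H3f3a. Exons of 14 of the 39 members overlap exons of another annotated gene, among them Suv39h2 with Dclre1c and Setdb1 with Cers2 on the opposite strand. The use of strand in counting is not given in the sources used here, so reads of such pairs cannot be told apart. Cbx6 shares 563 exon bases with Npcd on the same strand, where a strand setting would not separate the reads. Same-strand overlaps were also found for Hdac5, Kdm2b and Ehmt1.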

How the data were processed

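Per the labels' protocols, heart RNA was isolated with a miRNeasy kit and libraries were made with a TruSeq kit, 5 per genotype at day 14. The submitters' processing notes name TopHat2, Cufflinks, edgeR and mm10, without versions or roles. No source used here names the read counter or its strand setting. The authors deposited a signal value per gene and library, by the sheet name a CPM of the effective library size. They also deposited their own comparison, which holds a signal for each genotype and, per gene, a log2 ratio with its p-value and FDR. Every value was a whole multiple of 1 read (100% within 0.01 read), and the recovered counts served the count-based alternatives. The 21 rows with a date for a gene name, 0.134% to 0.204% of reads, were left out.

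The test was limma 3.58.1 on log2(signal + 0.5) over the 12855 genes whose mean signal reached 1 or more, genotype as the only factor, moderation with an intensity trend, two-sided, Benjamini-Hochberg adjusted p under 0.05. Fold changes on this scale understate changes of low genes. Alternatives were other pseudocounts, filters and scalings, library weights, each library left out, the replicate number as a block, edgeR 4.0.16 (quasi-likelihood) and DESeq2 1.42.0. Exon lengths are from GENCODE M21, and positions from the deposited table. Functions were tested on simulated data. These gave both groups the spread of the WT libraries and held no outlying library. They therefore do not show how the fits behave with the wider spread of the KO libraries. All members are named. Per-library values are given for members that did not overlap or were called in a fit without 1 KO library, for Ezh1, Ezh2, class IIa HDACs and HP1 genes. Those of Suv39h2, Setdb1, Setdb2, Ehmt2, Cbx7, Trim28 and Dnmt3a were added after their values were seen. From each other list the gene with the lowest p is named. Other genes of these lists without overlap, and markers called without the 5th KO library, were named after their values were seen. Members and lists were chosen with earlier results of these data known.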

Additional observations from a re-analysis of the deposited data

Results flagged for a closer look

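In 8 of 78 sets of 5 libraries (39 genes in each genotype) the highest or lowest library was separated from the others by a gap of more than 0.71 of the whole range, where chance gives about 1 in 20, or 3.9. Of the 8, 4 were in the 5th KO library, 2 in the 2nd KO library and 2 in the 4th WT library. In the 5th KO library Hdac1 was 11.7 (17.5 to 19.4 in KO libraries 1 to 4), Hdac2 was 53.2 (69.4 to 73.1), Ezh1 was 168 (46.9 to 68.6) and Cbx2 was 16.7 (6.39 to 8.57). In the 2nd KO library Kdm4a was 52.7 (74.3 to 81.4 in the other KO libraries) and Cbx1 was 8.47 (17.4 to 18.9). In the 4th WT library Kdm6b was 21.8 (18.4 to 19.3 in the other WT libraries) and Ehmt2 was 59.96 (47.8 to 50.3).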

How the results depend on the processing

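The call of 0 members held with limma under other pseudocounts, filters and scalings, with the replicate block and with edgeR's quasi-likelihood test. At a mean signal of at least 5 it was 0 of 37, as Suv39h2 and Cbx8 were not tested there. The number of members called was 6 with library weights, 1 with DESeq2 and 0 to 1 with each library left out in turn. It was 1 with edgeR without the 5th KO library and 2 without the 2nd and 5th KO libraries, these last 2 settings chosen after the data were seen. Over all genes the 26 calls became 14 at a mean signal of at least 5, 2280 with library weights, 786 with DESeq2, 6 to 640 with each library left out, 623 with edgeR without the 5th KO library and 1370 without the 2nd and 5th. Of the single libraries, only the 5th KO library gave more than 39 when left out. The median log2 change of the members was 0.00349 to 0.0814 with each library left out. The cause of these shifts was not tested. Over 22 settings (21 for Suv39h2 and Cbx8) 24 of 39 members kept the sign of their change and 15 did not, of which the largest main change was -0.34 (Cbx8). Hdac6 was called in 5 of the 22, with log2 changes of 0.43 to 0.62 (0.43 to 0.63 over all 22), and Ehmt2 in 2, with 0.31 and 0.35 (0.11 to 0.53 over all 22). Called in 1 each, with library weights, were Kdm3a, Suv39h2, Setdb1 and Setdb2 (adjusted p between 0.0172 and 0.0490). With the replicate number as a block 35 genes and 0 members were called. Same-numbered KO and WT libraries deviated with correlations of 0.182, -0.134, 0.171, 0.12 and 0.03, and only the 3rd KO library correlated best with its own number, so the numbers were not taken to pair the animals. Depth limits Suv39h2 most, with as few as 10 reads in a library.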
